A study of Mus musculus with 6 samples.

Results

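Complexes III, IV and V are the proton-pumping cytochrome bc1 complex, cytochrome c oxidase and the ATP synthase of the mitochondrial inner membrane. Their transcripts were taken as the rows of the gene count table whose mouse Ensembl identifier maps to a protein-coding gene with a symbol beginning Uqcr, Cox4 to Cox8 or Atp5, together with Cyc1, mt-Cytb, mt-Co1, mt-Co2, mt-Co3, mt-Atp6 and mt-Atp8. This rule gave 51 of 35122 rows. Of these, 45 are nuclear genes (9 of complex III, 18 of complex IV and 18 of complex V) and 6 are encoded by mitochondrial DNA (1, 3 and 2). A further 8 rows with matching symbols are pseudogenes, hold no count and were left out.

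RNA-seq was performed on epididymal adipocytes, the floating cell layer after collagenase digestion of the gonadal fat pad, from 3 control and 3 aPU.1KO male C57BL/6 mice labelled 10 to 11 months old and fed chow, although the study's text describes the sequenced mice as older than that. Control mice were PU.1 fl/fl littermates, and aPU.1KO mice carried the same floxed alleles with an Adipoq-Cre transgene, in which the adiponectin promoter drives Cre recombinase in adipocytes. PU.1, encoded by Spi1, is an ETS-family transcription factor of myeloid cells, and the floxed alleles carry loxP sites around exon 5. The comparison asks whether the loss of adipocyte PU.1 goes with a different level of respiratory chain transcripts.

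Electrons from complexes I and II reach complex III through ubiquinone, pass through cytochrome c to complex IV, and reduce oxygen there. Complexes I, III and IV pump protons across the inner membrane, and complex V uses the returning protons to make ATP. Complexes I, III, IV and V each hold subunits made inside the mitochondrion from mitochondrial DNA, beside those from nuclear genes, and complex II is wholly nuclear. Several nuclear subunits exist in tissue forms from paralogous genes. White adipocytes, which store triglyceride in a single droplet, have few mitochondria compared with brown adipocytes.

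The libraries held 20550252 to 69283842 counts, with control mouse 1 the deepest. Spi1 stood at 24.3, 6.35 and 26.7 CPM (counts scaled to library size) in control mice 1 to 3 and at 3.20, 1.22 and 4.17 in aPU.1KO mice 1 to 3, a log2 fold change of -2.75 ± 0.64 (standard error, SE, as for all fold changes below) with an edgeR adjusted p of 0.0788. These counts cover whole transcripts and are not limited to the deleted exon. The adipocyte marker list was present in every library, and for 8 of its 10 genes each aPU.1KO mouse lay above each control, as did 16.7% of all genes tested. Lep, the hormone leptin, went the other way within this list, at 4674, 4551 and 5029 CPM in controls and 2855, 1565 and 3949 CPM in aPU.1KO mice. The macrophage list was lower, with a summed level of 434.8 to 1488 CPM in controls and 210.5 to 301.0 CPM in aPU.1KO mice, and 10 of its 12 genes did not overlap between the groups, here called apart. No defining macrophage marker was at 0. Spi1 and the summed macrophage list were both lowest in mouse 2 within each group. The paper names macrophages that express PU.1 as a possible contaminant of the adipocyte fraction. Their part in the Spi1 difference was not tested. The fibroblast and progenitor list (5 of 7 genes) and the hepatocyte list (8 of 8 genes) were also lower in every aPU.1KO mouse, where 15.5% of all genes tested were. Of the markers tested, 1 of 7 for endothelium, 1 of 4 for lymphocytes and 1 of 4 for brown or beige fat were apart, each lower. None was apart for mesothelium (0 of 5), skeletal muscle (0 of 2), epididymis and testis (0 of 1), red blood cells (0 of 5) and immediate early and heat shock genes (0 of 6).

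Members were first looked at as sequences where sequence decides what a count can mean. The mitochondrial genes mt-Atp8 and mt-Atp6, for ATP synthase subunits 8 and a, lie on 1 bicistronic transcript and share 43 bases. The line below gives the whole mt-Atp8 coding sequence in GRCm38, with the stretch it shares with mt-Atp6 in capitals. A read lying wholly in the capitals cannot be assigned to only 1 of the genes.
mt-Atp8, chrM:7766-7969, plus strand: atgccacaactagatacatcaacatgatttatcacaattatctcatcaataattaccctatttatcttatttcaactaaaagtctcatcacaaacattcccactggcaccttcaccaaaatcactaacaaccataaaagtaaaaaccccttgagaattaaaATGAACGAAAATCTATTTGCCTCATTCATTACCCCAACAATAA

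Subunit c, the proton-carrying ring of ATP synthase, is encoded by Atp5g1, Atp5g2 and Atp5g3, which differ in their import sequences. The last 75 codons before the stop, which hold the mature protein, are given for each gene from GENCODE M21 transcripts, with every base that differs among the 3 genes in capitals. Translated, these stretches have 0 residue differences in each of the 3 pairs, although they differ at 34 bases between Atp5g1 and Atp5g2, 45 between Atp5g1 and Atp5g3 and 48 between Atp5g2 and Atp5g3. The capitals show where a read can be told apart from some paralog, but not always from each, because genes can share a letter there.
Atp5g1, gene at chr11:96068852-96075670, minus strand: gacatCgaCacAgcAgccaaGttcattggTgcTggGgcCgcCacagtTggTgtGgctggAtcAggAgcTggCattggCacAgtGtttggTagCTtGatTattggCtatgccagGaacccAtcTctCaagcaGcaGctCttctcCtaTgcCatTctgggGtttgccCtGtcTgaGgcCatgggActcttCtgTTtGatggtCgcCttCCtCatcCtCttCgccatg
Atp5g2, gene at chr15:102662864-102672352, minus strand: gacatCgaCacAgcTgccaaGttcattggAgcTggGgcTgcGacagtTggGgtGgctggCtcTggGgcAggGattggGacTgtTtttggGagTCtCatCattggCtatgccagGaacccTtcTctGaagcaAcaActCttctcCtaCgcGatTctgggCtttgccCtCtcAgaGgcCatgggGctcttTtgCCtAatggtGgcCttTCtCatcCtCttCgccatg
Atp5g3, gene at chr2:73908447-73911326, minus strand: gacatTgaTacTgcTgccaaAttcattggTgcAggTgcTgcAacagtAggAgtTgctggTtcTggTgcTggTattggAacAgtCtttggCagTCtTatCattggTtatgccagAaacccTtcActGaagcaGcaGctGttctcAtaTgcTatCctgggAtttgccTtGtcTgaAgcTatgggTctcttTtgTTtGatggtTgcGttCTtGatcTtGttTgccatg
Atp5g2 differs from its paralogs in another way. The processed pseudogene Gm10175, on chromosome 7, matches the Atp5g2 transcript at 100% identity over 645 bases, and it held 14117 counts against 1779 for Atp5g2 itself.

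Upstream bases are given for 4 nuclear members whose promoters hold letters known as factor motifs, because members moved together. RefSeq promoters of GRCm38.p6 were found for 33 of the 44 nuclear symbols, and the 250 bases before the start were searched on both strands. The members Cox4i2, Cox6c, Atp5mpl, Uqcrb, Cyc1, Atp5a1, Cox6a2, Uqcrc2, Cox4i1, Cox8c and Uqcrq had no entry. The ETS motif of GABPA type, CCGGAAGT, was in 3 of 33 member promoters (9.09%) and in 2.88% of all 32817 promoters, and the NRF1-type motif GCGCATGC in 4 (12.1%) against 2.25%. The ERR-type motif TCAAGGTCA was in 1 member (3.03%) against 0.387%, and the PU.1-type ETS motif GAGGAAGT was in 0 of 33 against 2.44%. The YY1-type motif AAGATGGC was also in 0 of 33, against 1.56%, and the SP-type motif GGGCGG in 11 (33.3%) against 32.7%. Capitals mark a match on either strand, and the members were picked after their motifs were seen.
Uqcr11, chr10:80406840-80406927, minus strand: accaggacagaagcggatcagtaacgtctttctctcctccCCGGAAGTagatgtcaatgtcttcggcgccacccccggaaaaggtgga
Uqcrh, chr4:116075071-116075121, minus strand: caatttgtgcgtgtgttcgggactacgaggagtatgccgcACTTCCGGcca
Atp5h, chr11:115419920-115419998, minus strand: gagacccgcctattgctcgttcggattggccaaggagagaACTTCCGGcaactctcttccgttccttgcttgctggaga
Atp5g3, chr2:73911330-73911418, minus strand: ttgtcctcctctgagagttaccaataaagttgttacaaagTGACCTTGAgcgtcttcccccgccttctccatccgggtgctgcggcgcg
The capitals in Uqcr11, Uqcrh and Atp5h are the ETS letters, and those in Atp5g3 are the ERR letters. The Atp5h stretch precedes the RefSeq start, but the GENCODE M21 gene begins at 115419962, so its capitals lie inside that annotation. A match describes these letters and shows no binding.

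Of the 51 members, 46 passed the filter on low counts, and 44 of these had a higher mean in aPU.1KO adipocytes. With edgeR's quasi-likelihood test, 31 members (67.4%) were higher at an unadjusted p under 0.05, against 11.9% of all 13925 genes tested, and 0 were lower, against 13.7%. All mice of one group stood above all mice of the other for the same number, 31, always in the direction of aPU.1KO, against 16.7% of all genes. No member reached an adjusted p under 0.05 in edgeR, where 0.0575% of all genes did so in this direction, and none did in limma-voom. In DESeq2 13 of the 46 members did, against 3.38% of the 16934 genes with an adjusted p there. The lowest edgeR adjusted p of a member was 0.0856. The median log2 fold change was 0.41 over the members and 0.01 over all genes tested. In these bulk samples, more respiratory RNA per adipocyte and a larger share of adipocytes among the cells cannot be told apart.

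**Figure D1:**
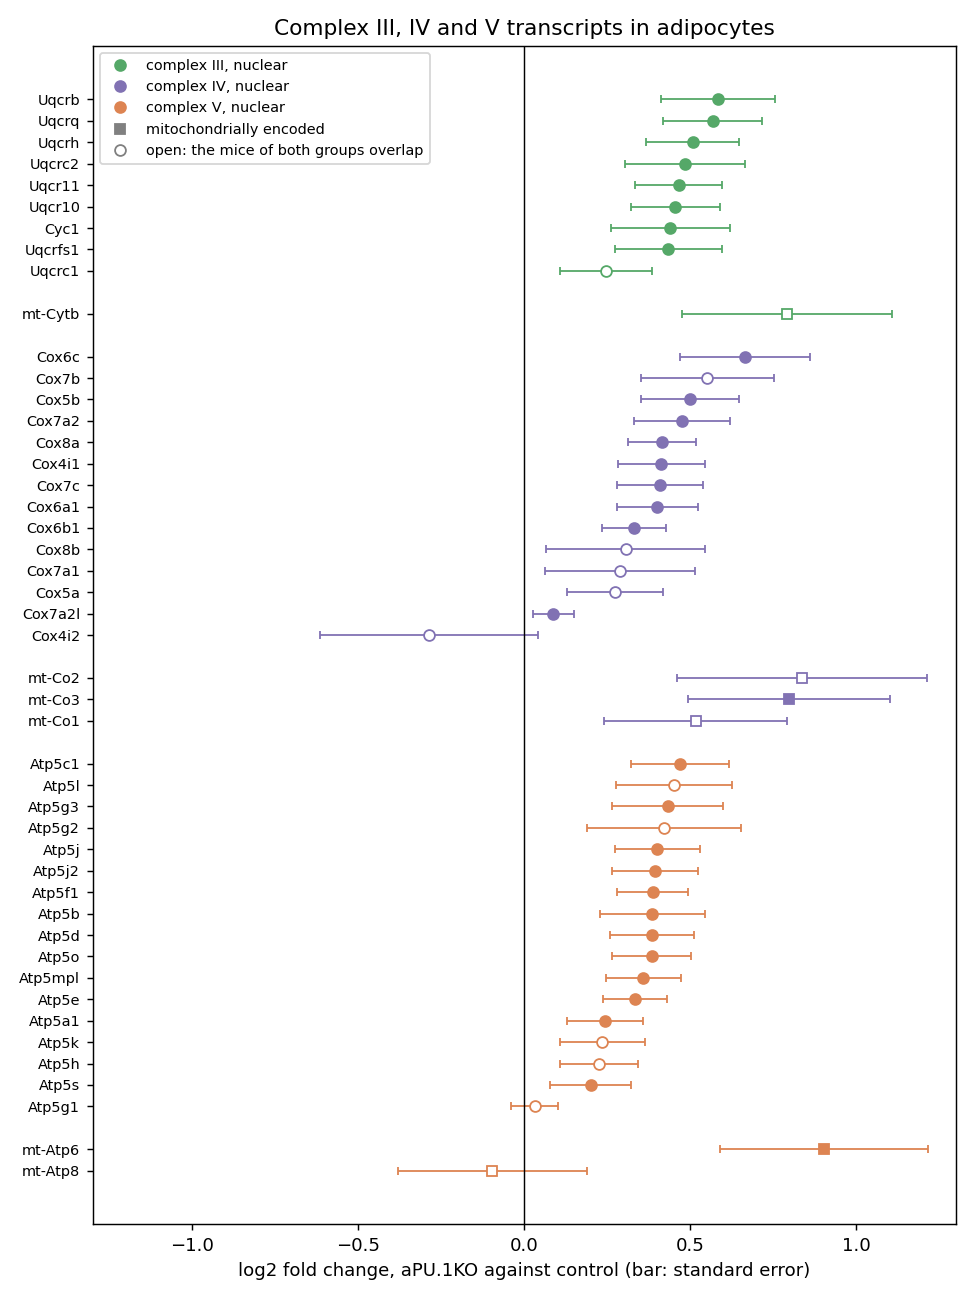
Log2 fold change of each tested member, aPU.1KO against control, with its standard error, by complex. Filled points are members whose 3 aPU.1KO mice all lie above the 3 control mice, and only Cox4i2 and mt-Atp8 lie below 0.

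Most members were highest in the same mouse. aPU.1KO mouse 2 held the highest CPM for 35 of the 40 nuclear members and 5 of the 6 mitochondrial members. Control mouse 1 was lowest for 21 nuclear members and control mouse 2 for 15, while control mouse 3 was lowest for 5 of the 6 mitochondrial members. The mean log2 CPM over all members was 7.10, 7.13 and 7.15 in control mice 1 to 3 and 7.48, 7.79 and 7.25 in aPU.1KO mice 1 to 3. Control mice thus lay within a narrow range, and aPU.1KO mice were spread more widely, with mouse 3 nearest to the controls. A list of immediate early and heat shock genes, which respond to tissue dissociation, had the same order within the aPU.1KO group. Its mean log2 CPM was 7.63, 8.53 and 6.83 there, beside 7.69, 7.65 and 7.46 in controls, where its order was the reverse of the members' order. The adipocyte marker list also had the members' order within the aPU.1KO group, at 10.97, 11.03 and 10.84. Fos, an immediate early gene, was at 1249 CPM in aPU.1KO mouse 2 and at 477.6 to 865.7 CPM in the other 5 mice. The part of either list in the members' levels was not tested. Without aPU.1KO mouse 2, 22 members were higher at an unadjusted p under 0.05, against 10% of all genes in that fit, and without control mouse 1 10 were, against 4.15% of all genes in that fit. Without control mouse 2 there were 19, against 11% of all genes.

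In complex III, 8 of the 9 nuclear members were higher in every aPU.1KO mouse, and the median log2 fold change was 0.47 (range 0.25 to 0.58), or 0.30 without aPU.1KO mouse 2. Cyc1, the cytochrome c1 that hands electrons to cytochrome c, stood at 118.0, 125.0 and 123.5 CPM in control mice and 152.8, 214.8 and 129.4 CPM in aPU.1KO mice. Uqcrfs1, the Rieske iron-sulfur protein, stood at 121.3, 126.7 and 125.6 CPM against 156.3, 212.4 and 136.0 CPM. Neither gene overlapped between groups, and in both aPU.1KO mouse 3 exceeded the highest control by little. The log2 fold changes were 0.44 ± 0.18 for Cyc1 and 0.43 ± 0.16 for Uqcrfs1, with edgeR adjusted p of 0.185 and 0.157. They were 0.205 and 0.228 without aPU.1KO mouse 2.

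Among nuclear members of complex III, the largest fold changes were those of the small subunits Uqcrb and Uqcrq. Uqcrb stood at 94.5, 92.6 and 101.7 CPM in controls and 156.1, 170.3 and 106.6 CPM in aPU.1KO mice, a log2 fold change of 0.58 ± 0.17. Uqcrq stood at 131.6, 136.0 and 150.1 CPM against 195.6, 252.0 and 171.7 CPM, or 0.57 ± 0.15 (edgeR adjusted p = 0.0909). Both were apart in all mice. Uqcrh, the hinge subunit that helps cytochrome c1 meet cytochrome c, and the small subunits Uqcr10 and Uqcr11 had fold changes of 0.51, 0.46 and 0.47 on the log2 scale. Uqcrc2, core protein 2, was at 0.48. Uqcrc1, core protein 1, had the smallest difference, 185.0, 186.4 and 197.7 CPM against 211.1, 273.7 and 190.9 CPM, and its groups overlapped. Its log2 fold change of 0.25 was 0.080 without aPU.1KO mouse 2.

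In complex IV, 14 of the 18 nuclear members were tested, and 9 of these were higher in every aPU.1KO mouse, with a median log2 fold change of 0.40 (range -0.29 to 0.67). The other 4, Cox6a2, Cox6b2, Cox7b2 and Cox8c, are forms of muscle or testis and had 0 to 22 counts in any library. Cox8c had 0 counts in all mice.

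The ubiquitous forms Cox4i1, Cox6a1, Cox6b1, Cox7a2 and Cox8a were higher in every aPU.1KO mouse, while Cox7b, the common form of its subunit, overlapped. Cox4i1, subunit 4, stood at 338.5, 364.4 and 354.0 CPM in controls and 451.2, 555.9 and 400.7 CPM in aPU.1KO mice. Cox6a1 stood at 224.1, 228.6 and 253.8 CPM against 302.3, 359.8 and 271.0 CPM, and Cox8a at 269.9, 284.8 and 292.8 CPM against 367.0, 421.9 and 342.0 CPM. No control mouse reached an aPU.1KO mouse for these 3 genes, nor for Cox6b1 (195.2, 198.7 and 205.6 against 230.2, 281.2 and 242.5 CPM) and Cox7a2 (107.2, 104.4 and 121.4 against 155.3, 182.4 and 125.0 CPM). The log2 fold changes were 0.41 ± 0.13 for Cox4i1, 0.40 ± 0.12 for Cox6a1, 0.42 ± 0.10 for Cox8a, 0.33 ± 0.10 for Cox6b1 and 0.48 ± 0.15 for Cox7a2, with edgeR adjusted p from 0.0856 (Cox8a) to 0.119 (Cox4i1). Cox4i1 was at 0.271 without aPU.1KO mouse 2.

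The largest fold changes of nuclear complex IV were those of Cox6c and Cox7b, small subunits around the catalytic core. Cox6c stood at 156.2, 153.7 and 182.3 CPM in controls and 249.5, 336.0 and 195.5 CPM in aPU.1KO mice, a log2 fold change of 0.67 ± 0.20. Cox7b stood at 68.6, 63.3 and 82.3 CPM against 107.4, 130.2 and 76.3 CPM, or 0.55 ± 0.20, and aPU.1KO mouse 3 fell within the controls. These fold changes were 0.436 and 0.359 without aPU.1KO mouse 2. Cox5b and Cox7c were at 0.50 and 0.41 on the log2 scale and were apart, and Cox5a was at 0.27 and overlapped. The exon of Cox6c shares 250 bases with Vps13b on the other strand, and strand-specific counting was not stated.

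Forms tied to other tissues or to oxygen level had low counts, and their groups overlapped. Cox4i2, the subunit 4 form of lung and hypoxia, stood at 1.50, 1.53 and 1.35 CPM in controls and 0.711, 1.40 and 1.47 CPM in aPU.1KO mice, a log2 fold change of -0.29 ± 0.33. This value was -0.036 without aPU.1KO mouse 1 and -0.458 without aPU.1KO mouse 3. Cox7a1, the form of heart and muscle, stood at 5.73, 4.03 and 7.06 CPM against 7.42, 7.01 and 6.16 CPM. Cox8b, the form of heart, muscle and brown fat, stood at 7.46, 6.13 and 8.80 CPM against 11.6, 9.45 and 6.63 CPM. No order of the groups held over all mice for these 3 genes, with edgeR adjusted p from 0.456 to 0.618. Cox6a2 had at most 0.278 CPM and Cox6b2 at most 0.657 CPM in any mouse.

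Cox7a2l, a Cox7a2 relative known for a role in supercomplexes of complexes III and IV that is impaired in the short form carried by C57BL/6 mice, had a narrow spread among mice. It stood at 95.8, 94.4 and 96.7 CPM in controls and 101.4, 100.8 and 102.7 CPM in aPU.1KO mice. The groups did not overlap, but the log2 fold change was 0.09 ± 0.06 (edgeR adjusted p = 0.407), and with no scaling factor it was -0.034.

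Levels can be compared among paralogs only per length, here as CPM per kb of the longest annotated transcript. On this scale Cox4i1 was at 460.5 ± 17.0 (SD, n = 3) in controls and Cox4i2 at 1.99 ± 0.13. Cox7a2 was at 168.4 ± 13.8 and Cox7a1 at 11.6 ± 3.1, and Cox8a was at 513.7 ± 21.1 and Cox8b at 20.7 ± 3.7. The ubiquitous form was thus the more abundant in each pair, by much more than the spread. The ratio of Cox4i1 to Cox4i2, per length, was 231.4 in controls and 392.3 in aPU.1KO mice as geometric means, and it was higher in every aPU.1KO mouse. Cox4i2 had only 14, 31 and 31 counts in aPU.1KO mice, however. On the log2 scale aPU.1KO mouse 3, at 8.031, exceeded the highest control, at 7.975, by little. The ratios of Cox7a2 to Cox7a1 (14.9 and 16.4) and of Cox8a to Cox8b (25.0 and 27.3) overlapped between groups.

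**Figure D2:**
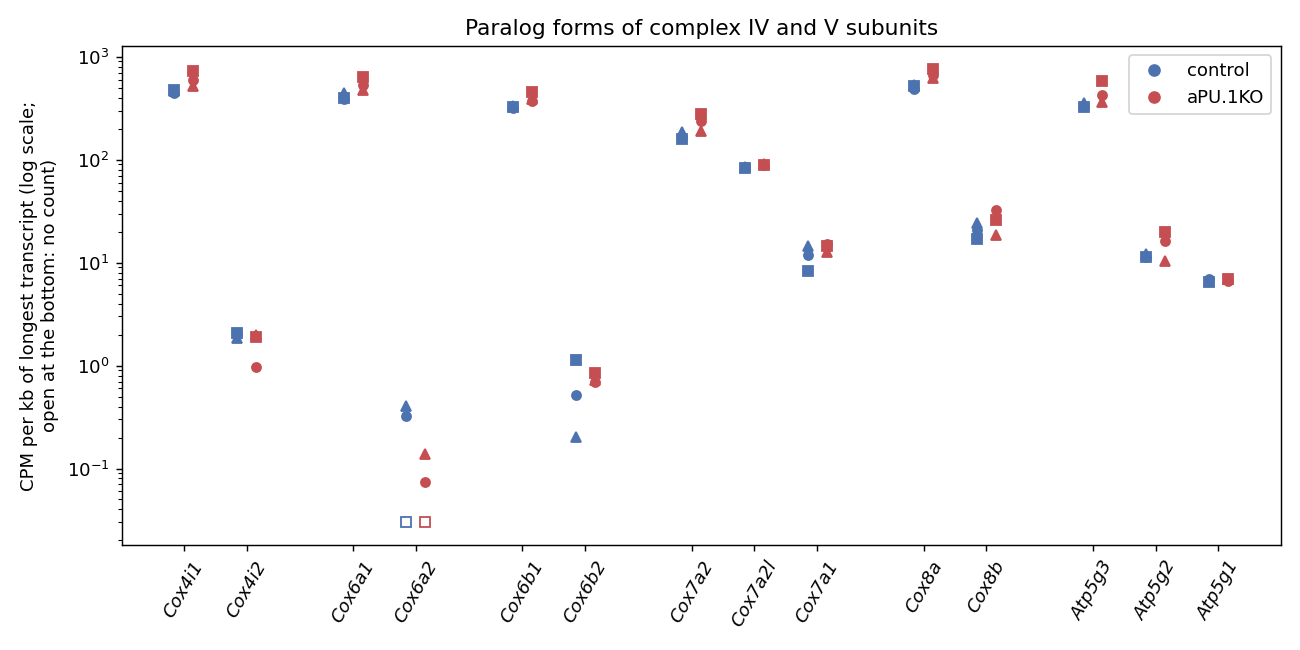
CPM per kb of longest transcript on a log axis for the paralog forms of complex IV subunits and subunit c, with 1 point per mouse (circle, square and triangle for mice 1, 2 and 3 of each group). Cox4i1, Cox6a1, Cox6b1 and Cox8a lie far above their paralogs in both groups. Atp5g3 lies above Atp5g2 by 29.2 as a ratio in controls, or 3.30 with the pseudogene copy added to Atp5g2, and Cox7a2 lies far above Cox7a1 but near Cox7a2l.

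In complex V, 17 of the 18 nuclear rows were tested, and 12 were higher in every aPU.1KO mouse, with a median log2 fold change of 0.39 (range 0.03 to 0.47), or 0.24 without aPU.1KO mouse 2. The row left out is a second Ensembl identifier for Atp5o with 1 count in all. Atp5b, the catalytic F1 beta subunit, stood at 1390, 1495 and 1444 CPM in controls and 1866, 2261 and 1533 CPM in aPU.1KO mice. Atp5a1, the F1 alpha subunit, stood at 812.4, 849.3 and 822.9 CPM against 970.3, 1100 and 868.6 CPM. Both were apart, with log2 fold changes of 0.39 ± 0.16 and 0.24 ± 0.11 and edgeR adjusted p of 0.187 and 0.236. Without aPU.1KO mouse 2 they were 0.233 and 0.148. Per kb, Atp5b was the highest of the nuclear members in controls, at 753.2 ± 27.3.

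The largest differences of nuclear complex V were those of Atp5c1, the rotating gamma subunit, and Atp5l, membrane subunit g. Atp5c1 stood at 210.0, 217.8 and 209.6 CPM in controls and 284.8, 358.9 and 239.2 CPM in aPU.1KO mice, a log2 fold change of 0.47 ± 0.15. Atp5l stood at 136.3, 127.5 and 152.8 CPM against 189.9, 234.4 and 145.2 CPM, and its groups overlapped. Without aPU.1KO mouse 2 the log2 fold changes were 0.299 for Atp5c1 and 0.267 for Atp5l. The F1 subunits Atp5d and Atp5e and the stalk subunits Atp5f1, Atp5j and Atp5o were apart, at 0.33 to 0.40 on the log2 scale. So were the membrane subunits Atp5j2 (0.39) and Atp5mpl (0.36). The stalk subunit Atp5h and the membrane subunit Atp5k overlapped, at 0.23 and 0.24. Atp5f1 shares 337 exon bases with Wdr77 and Atp5j shares 397 with Gabpa, each on the other strand.

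The 3 subunit c genes had log2 fold changes of 0.43 (Atp5g3), 0.42 (Atp5g2) and 0.03 (Atp5g1), and the differences among them were not tested. Those of Atp5g3 and Atp5g2 were 0.227 and 0.195 without aPU.1KO mouse 2. Atp5g3 stood at 240.6, 233.9 and 258.6 CPM in controls and 308.5, 416.4 and 265.0 CPM in aPU.1KO mice, and was apart. Atp5g1 stood at 32.4, 30.6 and 31.5 CPM against 31.5, 32.4 and 32.6 CPM, and its fold change, with a standard error of 0.07, was the smallest of nuclear complex V. Atp5s, a coupling factor, was next at 7.66, 7.70 and 7.38 CPM against 8.13, 9.09 and 8.90 CPM. Atp5g2 stood at 8.50, 8.49 and 9.16 CPM against 12.1, 15.0 and 7.86 CPM, and overlapped. The pseudogene Gm10175 held 88.1% to 90.4% of the joint counts in every mouse. With its counts added, Atp5g2 was at 76.0, 74.9 and 80.2 CPM in controls and 101.9, 131.4 and 82.1 CPM in aPU.1KO mice, which were apart, with a log2 fold change of 0.45 ± 0.16. In controls Atp5g3 was at 338.0 CPM per kb over its longest transcript and Atp5g1 at 6.68, but Atp5g1 has coding transcripts of 596 to 4715 bases, and over the shortest it was at 52.8.

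The 6 mitochondrially encoded members had a median log2 fold change of 0.80, beside 0.40 for the nuclear ones, but their range of -0.10 to 0.90 took in most of the nuclear values. Only mt-Co3 and mt-Atp6 were apart between groups. The difference between the mean log2 CPM of mitochondrial and nuclear members was 4.62 ± 0.29 (SD, n = 3) in controls and 4.84 ± 0.31 in aPU.1KO mice, and these values overlapped. Leaving out aPU.1KO mouse 2 gave a mitochondrial median of 0.40, beside nuclear medians of 0.30, 0.28 and 0.24 for complexes III, IV and V in the same fit. The mitochondrial share of all counts was 4.90%, 5.40% and 4.34% in controls and 6.23%, 9.38% and 5.10% in aPU.1KO mice.

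mt-Cytb, the cytochrome b at the core of complex III, stood at 5715, 6898 and 4649 CPM in controls and 8636, 14494 and 6762 CPM in aPU.1KO mice. The groups overlapped through aPU.1KO mouse 3, and the log2 fold change was 0.79 ± 0.32 (edgeR adjusted p = 0.178). mt-Co1, the catalytic subunit of complex IV with its heme and copper centre, stood at 13483, 15254 and 11398 CPM against 16776, 26062 and 14616 CPM, or 0.52 ± 0.28. mt-Co3 stood at 5586, 5921 and 5422 CPM against 8427, 14544 and 6478 CPM, or 0.80 ± 0.30, and was apart. mt-Co2, which takes electrons from cytochrome c, stood at 2524, 3014 and 2465 CPM against 4757, 7195 and 2340 CPM, or 0.84 ± 0.38. Here aPU.1KO mouse 3 was the lowest of the 6 mice. Without aPU.1KO mouse 2 the log2 fold changes were 0.418 for mt-Cytb, 0.228 for mt-Co1, 0.410 for mt-Co2 and 0.399 for mt-Co3.

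Copies of mitochondrial DNA in the nuclear genome also held counts, and whether these came from mitochondrial RNA was not tested. On chromosome 1, between 24613189 and 24616197, the annotated copies Gm28437, Gm10925, Gm28661 and Gm29216 match mt-Co3, mt-Atp6, mt-Co2 and part of mt-Co1 at 99.8% to 100% identity. The copy of mt-Co2 held 46.9%, 41.2% and 43.7% of the joint counts in controls and 34.4%, 47.2% and 59.1% in aPU.1KO mice. With the copy added, mt-Co2 was at 4749, 5128 and 4381 CPM in controls and 7251, 13634 and 5719 CPM in aPU.1KO mice. The groups were then apart, and the log2 fold change was 0.90 ± 0.33. For mt-Atp6 the copy held 21.4% to 31.0%, and for mt-Co1 12.0% to 18%.

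mt-Atp6 stood at 3190, 3757 and 2855 CPM in controls and 5454, 9015 and 3870 CPM in aPU.1KO mice, the largest fold change of all members, 0.90 ± 0.31 (edgeR adjusted p = 0.138, DESeq2 adjusted p = 0.0275). It was 0.511 without aPU.1KO mouse 2. mt-Atp8, from the same transcript, stood at 37.2, 53.4 and 24.9 CPM against 38.3, 42.0 and 27.8 CPM, or -0.10 ± 0.28. Per length, mt-Atp6 exceeded mt-Atp8 by 26.5 in controls and 48.6 in aPU.1KO mice as ratios, and the ratio was higher in every aPU.1KO mouse. The sequence of mt-Atp8 above shows that 43 of its 204 bases are shared, and the cause of its low count was not tested. The ratio of mt-Co1 to mt-Cytb, per length, was 1.73 in controls and 1.45 in aPU.1KO mice, lower in every aPU.1KO mouse. With the copy of mt-Co1 added it was 2.03, 1.86 and 2.17 in controls and 1.67, 1.61 and 1.95 in aPU.1KO mice, and the groups overlapped. The ratio of mt-Atp6 to mt-Atp8 stayed apart with its copy added, at 35.6 and 68.5. With 3 mice a group, the smallest two-sided p of an exact permutation test on such a ratio is 0.1.

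**Figure D3:**
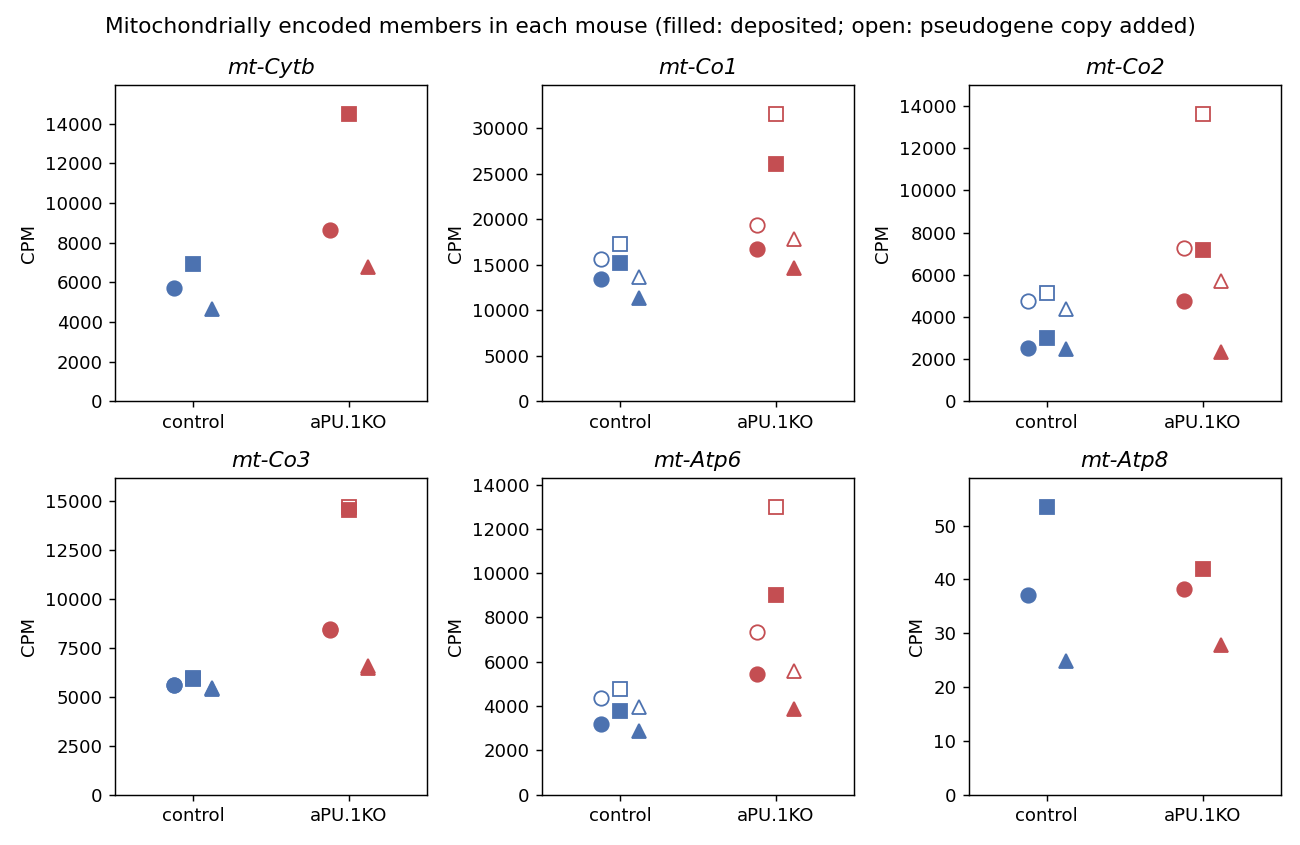
CPM of the 6 mitochondrially encoded members in each mouse, controls in blue and aPU.1KO in red, with circles, squares and triangles for mice 1, 2 and 3 of each group. Open points add the counts of a near-identical nuclear copy, which moves mt-Co2 from overlapping groups to groups apart.

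Genes of the same pathway outside the 3 complexes were read from lists. Of the 36 nuclear complex I genes, all tested, 32 (88.9%) were higher at an unadjusted p under 0.05 in edgeR and 0 lower, beside 11.9% and 13.7% of all genes, with a median log2 fold change of 0.39. All 4 complex II genes were higher at this level, with a median log2 fold change of 0.36 (range 0.27 to 0.66), and Sdha overlapped between groups. Sdhb, the iron-sulfur subunit, had the largest fold change of this list. It stood at 95.2, 94.4 and 99.2 CPM in controls and 149.4, 190.8 and 117.0 CPM in aPU.1KO mice. Of the 7 mitochondrial complex I genes, 2 (28.6%) were higher and 0 lower at the same level, with a median of 0.54, and none was apart. None of these genes passed an adjusted p of 0.05 in edgeR. In DESeq2 16 of the 36 nuclear complex I genes, 1 of the 7 mitochondrial ones and 1 of the 4 complex II genes did, all higher. The share of all genes with an adjusted p in DESeq2 that passed as higher was 3.38%.

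Genes that build or regulate the complexes had lower median differences, which were not tested against those of the members. Of 30 assembly factors, 8 (26.7%) were higher at an unadjusted p under 0.05 in edgeR and 0 lower, beside the same 11.9% and 13.7% of all genes, with a median log2 fold change of 0.20. Of 8 partners, 3 (37.5%) were higher (cytochrome c, Cycs; the ADP/ATP carrier Slc25a4; and Ndufa4, a complex IV subunit outside the symbol rule) and 1 was lower, the ATP synthase inhibitor Atpif1. Atpif1 stood at 23.6, 15.2 and 27.1 CPM in controls and 15.2, 15.5 and 14.8 CPM in aPU.1KO mice, and overlapped. Of 13 genes for mitochondrial transcription and replication, 3 (23.1%) were higher and 0 lower. Of 9 nuclear regulators, which include Nrf1, Gabpa, Esrra and Ppargc1a, 0 were higher and 0 lower, with a median of -0.07. Ucp1, the uncoupling protein of brown fat, had at most 1.06 CPM in any mouse.

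The marker lists of adipocytes and macrophages moved with the group as well. The adipocyte list was 0.39 higher in mean log2 CPM in aPU.1KO mice, beside 0.38 for the members, and the difference for the macrophage list was -1.76. Control mouse 2 had the fewest macrophage transcripts of the controls, with a mean log2 CPM of 4.61 against 6.17 and 5.89 in control mice 1 and 3. Its member mean of 7.13 lay between those of the other controls, but the coding classes differed. This mouse was the highest control for the mitochondrial members (11.39 against 11.13 and 10.91). It was the lowest control for the nuclear members, by little (6.487 against 6.49 and 6.584). For the adipocyte list it was the highest control (10.68 against 10.5 and 10.51). With the macrophage list as a covariate, 0 members were higher at an unadjusted p under 0.05, where 0.61% of all genes were, and the medians were 0.28, 0.32 and 0.27 for nuclear complexes III, IV and V and 0.13 for the mitochondrial members. The covariate itself separated the groups, with centred scores of 1.50, -0.07 and 1.21 in controls and -0.76, -1.13 and -0.75 in aPU.1KO mice, so in this fit macrophage content and genotype cannot be told apart. The part of cell composition in these differences was not tested.

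**Figure D4:**
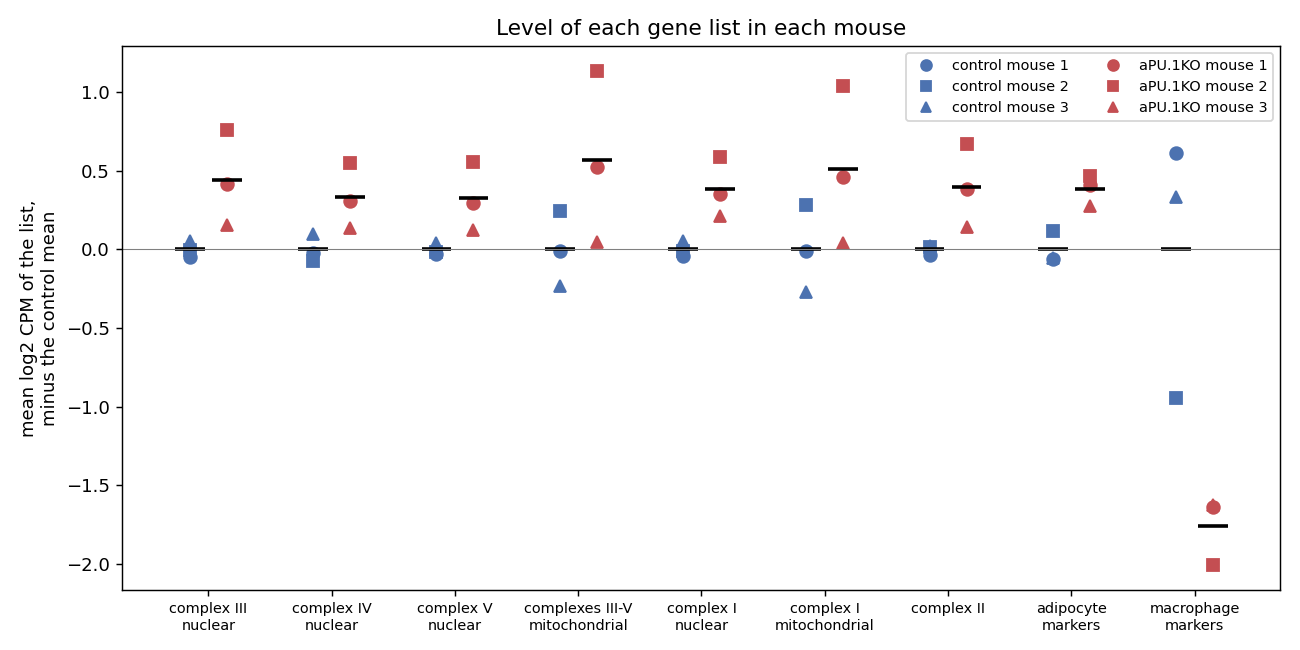
Mean log2 CPM of each gene list in each mouse, minus the control mean, with a bar at each group mean. The nuclear lists of complexes I to V and the adipocyte list lie above all controls in the 3 aPU.1KO mice, the mitochondrial lists overlap, and the macrophage list lies below.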

How the data were processed

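RNA-seq of 6 libraries, 3 per group, was analysed from the gene table. The authors quantified reads with Salmon (version not given in the sources used here) with selective alignment, and deposited estimated counts per gene, summed over transcripts and stored as whole numbers. The processing notes name GRCm38. Gene names, positions and lengths came from GENCODE M21, and 0 value columns were left unmapped. Counts were tested with edgeR 4.0.16 (filterByExpr, TMM scaling, quasi-likelihood test, Benjamini-Hochberg adjustment over 13925 genes) in R 4.3.3. DESeq2 1.42.0 (the study's own tool) and limma-voom 3.58.1 were alternatives. CPM used TMM-scaled library sizes, and mean log2 CPM a prior count of 2. Copies were found with BLAST 2.17.0 at 95% identity over 100 bases, and those at 99% over 300 bases were added in an alternative. The scripts were tested on simulated data. Members, lists and named genes were chosen with earlier results of these data known. Named with values in each mouse were all mitochondrial members, the paralog forms, Cyc1, Uqcrfs1, Atp5a1, Atp5b, and in each nuclear complex the 2 largest and 2 smallest fold changes. Whether libraries shared a preparation batch is not given in the sources used here.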

Additional observations from a re-analysis of the deposited data

How the results depend on the processing

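Scaling by RLE, upper quartile or nuclear genes, another filter, limma-voom, robust dispersion, the other edgeR legacy setting, thinning of control library 1 and addition of near-identical copies kept every count of members within 1.5 times and every median fold change in its direction. DESeq2 called 13 members higher at an adjusted p under 0.05, where edgeR called 0, and 8 of the 30 named members tested passed in it. With no scaling factor, an alternative chosen after seeing the data, the median of all genes shifted to -0.11. In that fit 19 members were higher at an unadjusted p under 0.05, against 5.15% of all genes. Under it 17 members were apart, but the share of all genes apart was computed only with TMM scaling. Cox7a2l (-0.034) and Atp5g1 (-0.091) changed direction. The macrophage covariate left 0 members at an unadjusted p under 0.05, lowered the mitochondrial median to 0.13 and turned mt-Co1 to -0.007. Leaving out each mouse in turn gave 10 to 38 members higher at an unadjusted p under 0.05, with 10 without control mouse 1 (4.15% of all genes), 19 without control mouse 2 (11%) and 38 without mouse 3 of the aPU.1KO group (13.3%), and 0 members higher past the adjusted threshold in any of these fits. The medians ranged from 0.30 to 0.59 in nuclear complex III, 0.28 to 0.50 in complex IV, 0.24 to 0.47 in complex V and 0.40 to 1.02 in mitochondrial members, each lowest without aPU.1KO mouse 2. mt-Atp8 ranged from -0.333 to 0.200, turning positive in the fits lacking control mouse 2 (0.200) and lacking mouse 3 of the aPU.1KO group (0.063). The count of members apart needs no test, so limma-voom, the dispersion settings and the covariate gave no value for it, and it was 31 under DESeq2 scaling. The causes of these changes were not tested. No paired analysis was possible because the labels give the groups no shared replicate numbers. What limits the precision was not tested, and Cox6a2, Cox6b2, Cox7b2 and Cox8c had too few counts for any comparison.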
